A study of Homo sapiens
Mus musculus and Mus musculus and Homo sapiens with 3 samples.

Results

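Nascent motor neurons are described here in human and mouse cells differentiated in culture. They were defined as cells that had switched on motor neuron transcription factors but not yet built up neurofilament. A member held at least 2 UMIs (unique molecular identifiers, 1 per captured RNA molecule) of ISL1, MNX1 and LHX3 summed, at least 1 UMI of ELAVL3 and at most 2 UMIs of NEFM. The rule kept 573 of the 8683 cells that had at least 1000 UMIs, at least 500 genes and at most 10% mitochondrial UMIs. Members were thus chosen by the counts of those 5 genes, so their levels are given as a description and carry no test.

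Human and mouse pluripotent cells had been carried through motor neuron differentiation as embryoid bodies, which are free-floating cell aggregates. Before differentiation all cells received a lentivirus with a short barcode and GFP under the CAGGS promoter, so every group carried the reporter and only GFP-positive cells were loaded. The mixed library held human replicate 1 (the line NCRM1, labelled human iPS) and mouse replicate 1 (C57BL/6 mouse ES cells). Human replicate 2 (RUES1, labelled human iPS) and mouse replicate 2 (C57BL/6 mouse ES cells) were separate libraries. Cells had been collected every 48 h in human and every 24 h in mouse cultures, and the days were pooled in the files, so a class of cells here is not a time point. The human replicates are different lines, nothing in the labels says that the mouse replicates came from separate cultures, and a p-value measures only the spread between these library parts.

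In the ventral neural tube, SOX2 keeps progenitors undifferentiated and OLIG2 marks the domain that makes motor neurons. Proneural basic helix-loop-helix (bHLH) factors such as NEUROG2 switch on Notch ligands, drive cells out of the cycle and start the neuronal programme, while Notch signalling through HES genes holds neighbouring cells back. ISL1 and LHX3 then act in 1 complex on motor neuron genes and MNX1 guards that identity. LHX3 without ISL1 is the combination of V2 interneurons, which arise just dorsal to motor neurons. Neurofilament builds up later, as the axon extends.

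Each species and replicate is called a library part. The files list different gene sets, so a gene's level or detection in human against mouse cells is a description only. Its change between classes within a part can be compared. Sets of 4 values are given throughout in the order human 1, human 2, mouse 1, mouse 2, and the parts held 2332, 1829, 1816 and 2706 cells. Members numbered 122, 107, 154 and 190, or 5.23%, 5.85%, 8.48% and 7.02% of the cells. The mean share was 5.54% ± 0.437 in human and 7.75% ± 1.03 in mouse (SD, n = 2 each), and an exact two-sided permutation test gave p = 0.33, the smallest value that 2 parts against 2 allow. The part of the GFP sort and of the days sampled in this share was not tested. Members were compared with 843, 647, 673 and 493 progenitors, which held SOX2 and OLIG2 UMIs and none of ISL1, MNX1 or LHX3, and with 206, 341, 132 and 374 neurofilament-rich cells, which passed the same rule except that they held at least 3 NEFM UMIs. Members had median depths of 10905, 16829, 14051 and 21236 UMIs per cell, against 12887, 20142, 22604 and 32679 in progenitors and 9868, 16289, 16303 and 25097 in neurofilament-rich cells. Their median mitochondrial shares of 3.41, 5.79, 2.29 and 1.37% lay near the 3.52, 5.42, 2.23 and 1.2% of progenitors.

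The members' factor genes were unevenly loaded. LHX3, the LIM-homeodomain factor that motor neurons share with V2 interneurons, stood at 226, 174, 181 and 116 CPM (counts scaled to a common library total). MNX1 stood at 56.4, 119, 68.8 and 70.7 CPM. ISL1, the factor that sets motor neurons apart from V2 interneurons, stood at 83.1, 65.7, 251 and 374 CPM. ISL1 was thus lower in both human parts than in either mouse part, as a level that the rule itself used and that carries no test. ELAVL3, an RNA-binding protein of newly formed neurons, reached 288, 312, 486 and 314 CPM, below its 377, 488, 609 and 521 CPM in neurofilament-rich cells of the same parts. NEFM, the medium neurofilament subunit, was 15.2, 22.8, 28 and 25.4 CPM in members and 2902, 4198, 1327 and 2268 CPM in neurofilament-rich cells, a gap that the rule made. Progenitors had no NEFM limit and held 11.1 CPM in human replicate 1 and 34.3 CPM in human replicate 2. In human replicate 2 members were thus below progenitors for NEFM.

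Most members still held progenitor transcripts. SOX2 was 219.8, 281, 90.6 and 97 CPM in members against 409, 465, 185 and 159 CPM in progenitors and 41, 40.5, 32.7 and 14.2 CPM in neurofilament-rich cells, and 71.3, 86, 56.5 and 59.5% of members had a SOX2 UMI. OLIG2 was 468, 412, 309 and 335 CPM in members, higher in every part than the 288, 287, 157 and 168 CPM of progenitors that had been chosen for holding OLIG2. It was 60.1, 56.4, 83.6 and 30.7 CPM in neurofilament-rich cells. Members therefore lay between the classes for SOX2, for which progenitors had also been chosen, and above both for OLIG2. As a background, cells with at least 10 collagen UMIs and no SOX2, which should lack these genes, gave 5.05, 0 and 0% of cells with an OLIG2 UMI in human replicates 1 and 2 and mouse replicate 2, at median depths of 13042, 16606 and 21806 UMIs. No cell of mouse replicate 1 met this collagen rule, so that part has no such background.

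Of the markers given for the class, NHLH1 was the one outside the rule. NHLH1, a bHLH factor made for a short time at neuronal birth, was 333, 206, 74.6 and 33.4 CPM in members, 23.9, 19, 1.34 and 0.43 CPM in progenitors and 216, 155, 70.03 and 20.7 CPM in neurofilament-rich cells. Human members held more than mouse members. A NHLH1 UMI was found in 85.2, 79.4, 51.9 and 42.1% of members and in 2.02, 4.17 and 0% of the collagen-rich cells. Later motor neuron genes were mostly still low. SLC18A3, the vesicular acetylcholine transporter, was 3.61, 7.76, 61.7 and 38.7 CPM in members against 82.1, 57.3, 232 and 271 CPM in neurofilament-rich cells. ISL2 (an ISL1 relative of maturing motor neurons) was 4.34, 1.03, 4.88 and 2.87 CPM against 141, 95.6, 25.2 and 62.5 CPM. CHAT, the acetylcholine synthesis enzyme, had no UMI in human members and 7.99 and 9.5 CPM in mouse members. SLC18A3 and CHAT, of the cholinergic genes, were thus higher in mouse than in human members.

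**Figure D1:**
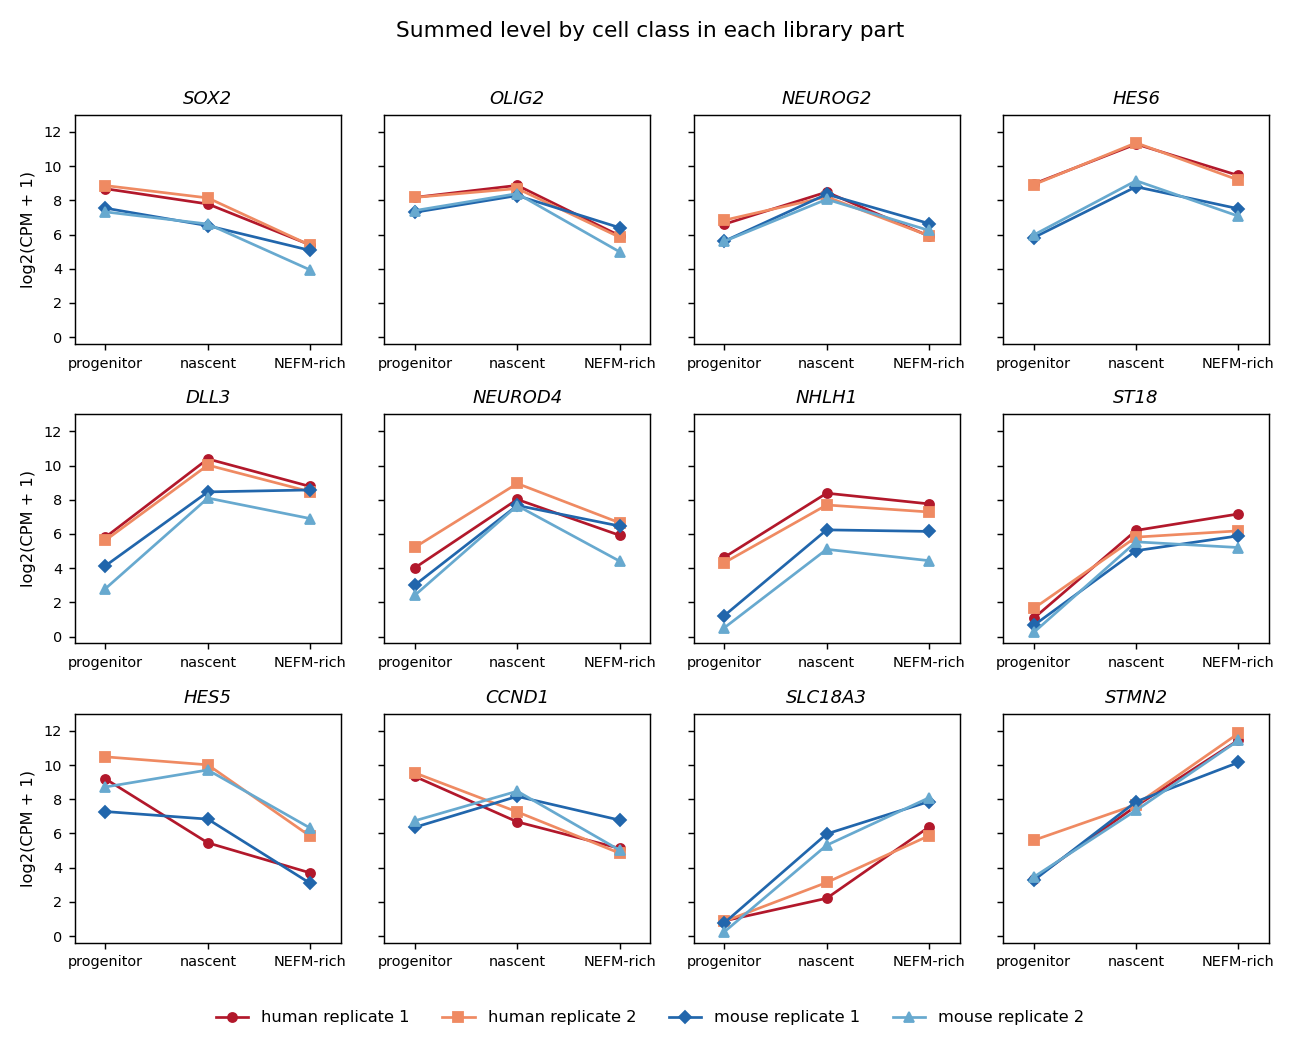
Level of 12 genes in progenitors, nascent cells and neurofilament-rich cells (x axis) as log2(CPM + 1) of the summed counts (y axis), 1 line per library part and no error bars because each point is 1 sum. SOX2 declines along the classes and STMN2 climbs, while NEUROG2, HES6 and NEUROD4 peak in nascent cells in all 4 parts, and CCND1 declines in human and peaks in mouse parts.

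The combination of factors differed between species. LHX3 was the only factor detected in 43.4%, 40.2%, 26% and 12.1% of members. ISL1 was detected in 43.4, 42.1, 69.5 and 84.7% of members. After each cell was thinned to 5000 UMIs, with membership still set at full depth, it was detected in 26.3, 25.7, 55.2 and 63.5%. With the rule applied again to the thinned cells, 27 of 64, 30 of 55, 91 of 114 and 122 of 135 members held ISL1. Both human parts were below both mouse parts each way. All 3 factors were found together in 16.4%, 26.2%, 20.8% and 28.9% of members. MNX1 alone let in at most 4 cells of any part. Both comparisons of shares rest on 2 parts per species, and they describe values that the rule itself used.

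**Figure D2:**
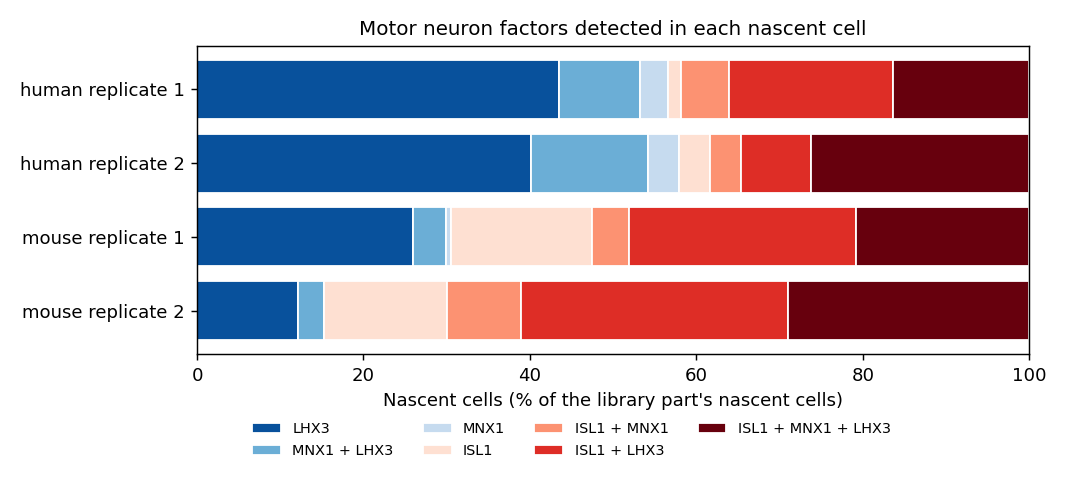
Share of each library part's nascent cells (x axis, %) that held each combination of ISL1, MNX1 and LHX3 UMIs. The blue segments are cells without ISL1 and cover 56.6%, 57.9%, 30.5% and 15.3% of the cells, widest in the human parts.

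Cells near the thresholds graded into each other. With a factor sum of exactly 2 UMIs there were 41, 25, 30 and 25 members, and with a sum of 1, just outside, 62, 44, 72 and 69 cells. In those just-outside cells NHLH1 stood at 250.4, 91.3, 17.8 and 9.33 CPM, between progenitors and members. NEFM was 0 in 106, 71, 106 and 103 members, and 4, 6, 15 and 16 cells had 3 NEFM UMIs, just outside. STMN2, which destabilises microtubules in growing axons, was 133, 153, 146 and 98.9 CPM in members with no NEFM, 898, 360.3, 887 and 378 CPM at 2 NEFM UMIs and 601, 785, 339 and 705 CPM at 3. STMN2 thus climbed with NEFM inside the class in every part, although only 5, 8, 15 and 28 members held 2 NEFM UMIs.

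Tests between classes used edgeR's quasi-likelihood test on counts summed per library part and class, with the library part as a block, and Benjamini-Hochberg adjustment over all genes tested. The 7 genes that define the classes were not tested. Genes tied to those 7 differ by construction, so a call says only that a difference exceeded its spread across the parts. Against progenitors 2058 of 10311 genes were called at an adjusted p under 0.05 (20%), 967 higher (9.38%) and 1091 lower (10.6%), and the median over all genes was -0.04 on the log2 scale. The members' median depth was below that of progenitors in every part, and with all cells thinned to 5000 UMIs 1139 of 6350 genes were called. Without mouse replicate 1 there were 894 calls and without human replicate 2 there were 1241.

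The bHLH factors of neurogenesis were higher in members. Of 11 bHLH factors tested, 8 rose, with a list median of 2.73 on the log2 scale. NEUROG2, the proneural factor of the motor neuron domain, stood at 357, 294, 327 and 266 CPM in members and 96.4, 113, 48 and 47.7 CPM in progenitors (log2 fold change 2.13, SE 0.21, adjusted p = 7.0e-04). The lowest member value exceeded the highest progenitor value. NEUROD1, which acts after the proneural factors, stood at 119, 48.1, 136 and 149 CPM against 1.52, 1.99, 4.92 and 3.0 CPM (log2 fold change 5.28, SE 0.28, adjusted p = 4.0e-05). NEUROD4 stood at 259, 494, 202 and 201 CPM against 15.2, 36.4, 7.09 and 4.35 CPM (log2 fold change 4.51, SE 0.27, adjusted p = 7.9e-05). Both differentiation factors were scarce in progenitors of every part, so their folds are large where their levels are moderate. NHLH2, a paralog of NHLH1, rose to 46.3, 25.3, 344 and 156 CPM from 1.44, 0.96, 7.53 and 2.26 CPM (log2 fold change 5.45, SE 0.22, adjusted p = 1.1e-05), and NHLH1 itself had a log2 fold change of 4.42 (SE 0.41, adjusted p = 5.3e-04). In level the pair ran opposite ways: NHLH1 was higher in both human parts than in either mouse part, and NHLH2 was higher in both mouse parts. These levels across species are a description only, since the files list different gene sets.

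Genes that are made briefly at neuronal birth rose with them. Of 27 such genes tested, 23 rose, with a median of 3.47. Among called genes that moved the same way in every part and held at least 50 UMIs there, ST18, a zinc-finger factor, had the largest fold. It stood at 73, 55.3, 31.5 and 45.5 CPM against 1.1, 2.13, 0.57 and 0.18 CPM (log2 fold change 5.80, SE 0.38, adjusted p = 1.2e-04). HES6, an inhibitor of the Notch target HES1, stood at 2502, 2634, 443 and 567 CPM against 498, 482, 55.6 and 62 CPM (log2 fold change 2.74, SE 0.14, adjusted p = 3.9e-05). GADD45G, a growth-arrest gene, had a log2 fold change of 3.63 (SE 0.16, adjusted p = 1.4e-05). RGS16, a brake on G-protein signalling, had 4.22 (SE 0.17, adjusted p = 1.1e-05) and EBF2, a helix-loop-helix factor of early neurons, 5.56 (SE 0.33, adjusted p = 7.9e-05). CDKN1C, a cyclin-dependent kinase inhibitor, rose from 54.8, 173, 81.9 and 93.7 CPM to 168, 426, 474 and 469 CPM (log2 fold change 1.95, SE 0.19, adjusted p = 7.3e-04).

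Notch ligands rose and HES1 fell, and the members' HES5 levels split by library. DLL3, a ligand-like protein that blocks Notch within the cell that makes it, stood at 1340.4, 1043, 351 and 273 CPM in members against 55.3, 48.6, 16.7 and 6.0 CPM in progenitors (log2 fold change 4.71, SE 0.19, adjusted p = 1.1e-05). DLL1, the main activating ligand of this region, had a log2 fold change of 2.30 (SE 0.21, adjusted p = 5.0e-04), and MFNG, an enzyme that modifies Notch and its ligands, one of 3.09 (SE 0.27, adjusted p = 4.7e-04). HES1, a Notch target that represses proneural genes, fell (log2 fold change -1.90, SE 0.40, adjusted p = 0.014), from 166, 152, 145 and 266 CPM to 10.1, 47.6, 29.7 and 177 CPM. HES5, the other main target, was 42.7, 1030.2, 113 and 837 CPM in members and 582, 1425, 154 and 419.5 CPM in progenitors and was not called (adjusted p = 0.43). As a change from progenitors HES5 was lower in 3 parts and higher in mouse replicate 2. Its level was low in members of both parts of the mixed library and high in members of the 2 separate libraries, in both species. Within each species, progenitors and neurofilament-rich cells of the separate library also held more HES5 than those of the mixed library. The parts of the separate libraries also had the higher median depths within each species, and the human libraries held different lines. The part of depth, line or library in the HES5 pattern was not tested. At 5000 UMIs per cell a HES5 UMI was found in 10.2, 64.8, 24 and 65.7% of members.

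Progenitor genes fell, but not all of them. Of 28 genes in the neural progenitor list, 13 fell and 1 rose, with a median of -0.77. ID3, an inhibitor of bHLH factors, was 19.5, 108, 12.9 and 132 CPM in members and 229.7, 344, 289.7 and 569.9 CPM in progenitors (log2 fold change -2.77, SE 0.40, adjusted p = 0.0034). SOX3, a SOX2 relative, fell (log2 fold change -1.42, SE 0.16, adjusted p = 0.0013), as did SFRP2, a secreted Wnt antagonist (log2 fold change -2.02, SE 0.22, adjusted p = 0.0011), and SLC1A3, a glial-type glutamate transporter (log2 fold change -2.11, SE 0.47, adjusted p = 0.018). NKX6-2, a ventral progenitor factor, had the lowest fold of the named genes (log2 fold change -3.11, SE 0.22, adjusted p = 1.5e-04), although its paralog NKX6-1, which motor neurons keep, rose (log2 fold change 0.68, SE 0.17, adjusted p = 0.025). The progenitor gene that rose was OLIG1, the neighbour and paralog of OLIG2 (log2 fold change 1.11, SE 0.18, adjusted p = 0.0054), at 358, 281, 63.5 and 81.3 CPM against 152, 146, 45.1 and 24.4 CPM. The intermediate filament genes stayed near their progenitor levels: VIM was 3249.8, 4077, 903 and 929.8 CPM in members and 2757, 3638, 726 and 856 CPM in progenitors, and NES was 359, 865, 39.1 and 97.4 CPM and 447, 747, 58.8 and 118 CPM. Members therefore still carried the progenitor filaments while neurofilament was low by the rule.

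Sonic hedgehog, the ventral signal that sets up this domain, is read through GLI factors. Of 11 pathway genes, 5 fell and 1 rose (HHIP, a pathway antagonist). GLI1, a target of the pathway, fell from 12.5, 10.2, 29.8 and 17.9 CPM to 5.06, 2.07, 8.44 and 3.53 CPM (log2 fold change -1.98, SE 0.25, adjusted p = 0.002). PTCH1, the receptor and also a target, fell less (log2 fold change -0.58, SE 0.10, adjusted p = 0.0074). HMGA2 and LIN28A, regulators of early developmental stages, fell, with log2 fold changes of -1.67 and -1.34 (adjusted p = 3.1e-04 and 0.0056), and of 8 genes of that kind 3 fell.

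Cell-cycle genes did not fall as 1 block. Of 29 S phase genes 26 fell (median -1.24), while of 35 genes of G2 and mitosis 3 fell (BIRC5, KIF20B and SMC4, median -0.60). Of all genes tested, 10.6% were called lower. The S phase genes summed to 781, 1719.5, 1770.5 and 3011 CPM in members and 2862, 3650.2, 3536 and 4124 CPM in progenitors, lower in every part. The G2/M genes summed to 1619, 4220, 2772 and 5967 CPM against 5043, 5326, 4349 and 5116 CPM, lower in 3 parts and higher in mouse replicate 2. Within species, 19 of the 35 G2/M genes fell in human and 1 in mouse, where 12.2% of all genes were called lower in human and 14.3% in mouse. The species difference itself was called for 2 of them. Of all genes, 2289 were called in either direction in human (22.2%) and 2827 in mouse (27.4%). The human count was 561 without human replicate 1 and 1411 without human replicate 2, and the mouse count was 1805 without mouse replicate 1 and 1410 without mouse replicate 2. MKI67, a protein of dividing cells, was 28.2, 134, 39.5 and 129 CPM in members and 124, 183, 69.7 and 108 CPM in progenitors. A MKI67 UMI was found in 7.38, 22.4, 22.1 and 56.3% of members, and in 4.24, 20, 11 and 34.3% at 5000 UMIs per cell. The collagen-rich cells, which may themselves divide and so are no background for this gene, gave 21.2, 26.4 and 17.2%. MKI67 CPM of members was higher in each separate library than in the mixed library's part of the same species, and so was that of progenitors. Scrublet, which scores droplets that look like a mixture of cells, marked 1, 1, 0 and 3 members as doublets.

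**Figure D3:**
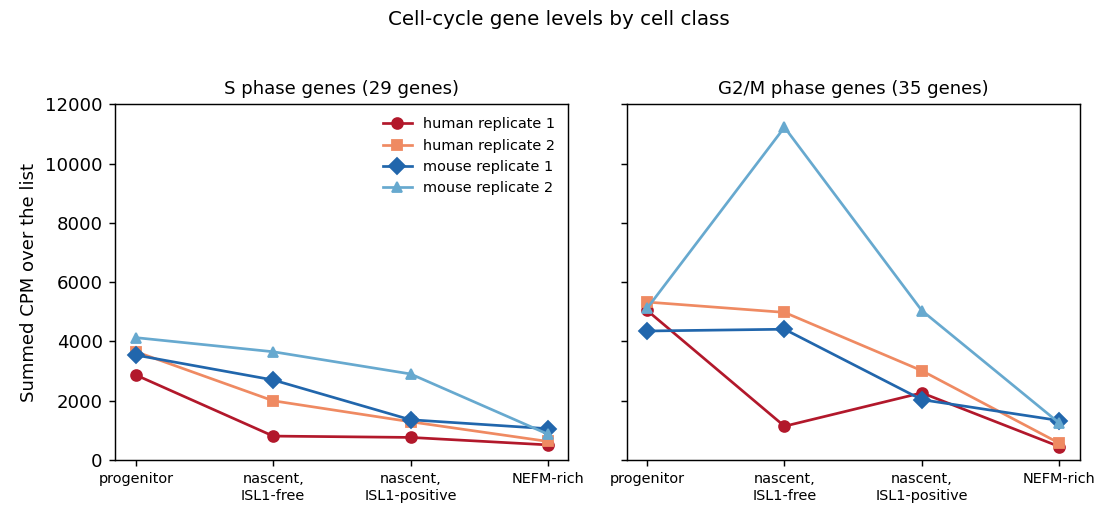
Summed CPM (y axis) of S phase genes (left) and G2/M genes (right) in progenitors, nascent cells without and with an ISL1 UMI, and neurofilament-rich cells, 1 line per library part. S phase sums decline along the classes in every part, while G2/M sums peak at 11229 CPM in ISL1-free cells of mouse replicate 2.

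Motor neuron genes outside the rule had begun to rise. Of 16 tested, 10 rose and 1 fell (NKX6-2), with a median of 2.60. LHX4, the close relative of LHX3, stood at 8.68, 19.1, 50.2 and 47.1 CPM against 0.25, 0.74, 1.53 and 0.67 CPM (log2 fold change 5.24, SE 0.28, adjusted p = 4.0e-05). ONECUT1, an early motor neuron factor, stood at 81, 147, 16.9 and 16.6 CPM against 6.95, 24.9, 0.51 and 0.31 CPM (log2 fold change 3.69, SE 0.41, adjusted p = 0.0012). CNTN2, an adhesion protein of outgrowing axons, stood at 21.7, 31, 42.6 and 86.2 CPM against 1.52, 2.06, 0.70 and 1.22 CPM (log2 fold change 4.97, SE 0.41, adjusted p = 3.5e-04). SLC18A3 rose (log2 fold change 5.21, SE 0.73, adjusted p = 0.0031) on 5, 15, 139 and 175 UMIs. Its human share of members with a UMI, 4.1 and 10.3%, was small, and the collagen-rich cells gave 0, 0 and 0%, where a count of 0 allows up to 3.03, 4.17 and 10.3%. SLIT2, a repellent that motor neurons secrete, was 4.34, 8.79, 34.2 and 93.7 CPM against 5.0, 7.65, 1.72 and 4.28 CPM and did not pass over all parts (adjusted p = 0.052). Its groups overlapped in human and not in mouse.

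The neuronal cell body and axon genes rose from low levels. Of 34 microtubule, growth cone and filament genes, 24 rose (median 1.28). STMN2 stood at 193, 204, 231 and 162 CPM against 9.15, 47.4, 8.56 and 9.92 CPM (log2 fold change 3.81, SE 0.41, adjusted p = 0.0011), and DCX, a microtubule-binding protein of migrating neurons, at 39, 45.5, 33.3 and 38.9 CPM against 5.17, 9.19, 2.17 and 4.71 CPM (log2 fold change 3.0, SE 0.25, adjusted p = 4.0e-04). TUBB3, the neuronal tubulin, rose (log2 fold change 3.33, SE 0.42, adjusted p = 0.003). It was listed at 0 throughout human replicate 1, and those zeros entered the fit. Of 21 neuronal RNA-binding proteins, 11 rose. They included CELF3, a splicing regulator (log2 fold change 4.01), and SRRM4, which promotes neuronal microexons (log2 fold change 3.59), and the gene that fell was PTBP1, the repressor of neuronal splicing (log2 fold change -0.84, SE 0.10, adjusted p = 0.0014). Of 25 synaptic genes, 16 rose (median 1.41). Of 15 channels and receptors, 9 rose, led by CHRNA3, a nicotinic receptor subunit, at 117, 70.9, 63.9 and 26.3 CPM against 3.47, 2.94, 2.3 and 1.04 CPM (log2 fold change 4.79, SE 0.17, adjusted p = 1.0e-05). Of 41 guidance and adhesion genes, 15 rose and 3 fell. EPHA3 and NRP2, guidance receptors, rose by 3.08 and 3.06 on the log2 scale (adjusted p = 0.0051 and 0.0034).

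Some positional and temporal genes rose. Of 26 HOX genes, which set position along the body axis, 8 rose, with a median of 0.53. HOXB6 had a log2 fold change of 1.09 (SE 0.22, adjusted p = 0.013) and HOXA9 one of 0.90 (SE 0.24, adjusted p = 0.042). Of 10 temporal factors, 5 rose, among them POU2F2 (log2 fold change 3.47, SE 0.34, adjusted p = 7.1e-04). Of 20 immediate early and stress genes, 3 rose and 2 fell. Of 14 factors of motor columns and pools, 3 rose and 2 fell (median 0.13), and of 18 glycolysis genes 2 fell. Of all genes tested, 9.38% were called higher and 10.6% lower. The counts that fell in the stress, column and glycolysis lists lay near that share and are no result about those lists.

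Other cell types were looked for through their markers. The V2 interneuron list summed to 28.2, 35.2, 133 and 73.8 CPM in members, with 8, 9, 10 and 9 of 11 genes detected, against 8.13, 18.8, 52 and 44.9 CPM in progenitors. Of 6 of its genes tested 3 rose. They included GATA2, a factor of V2b interneurons (log2 fold change 3.70, SE 0.68, adjusted p = 0.0083), and FOXN4, a factor of V2 progenitors (log2 fold change 2.75, SE 0.66, adjusted p = 0.023). The visceral and cranial motor neuron list summed to 7.95, 41.9, 91 and 28.1 CPM. PHOX2A, a marker of those neurons, had 0, 0, 78 and 1 UMIs in members and TBX20 0, 0, 4 and 0. The human sums therefore came from other genes of that list. Of 4 of its genes tested against progenitors, 1 rose and 1 fell (median -0.19). Of all genes tested, 9.38% were called higher and 10.6% lower. The pluripotency list summed to 62.9, 82.2, 1.78 and 1.77 CPM in members, the glial list to 1.45, 7.24, 7.99 and 30.5 CPM and the epithelium and endoderm list to 11.6, 21.7, 2.66 and 17 CPM. The mesenchyme list summed to 13.7, 77.1, 3.11 and 5.74 CPM in members and 17.7, 73.6, 4.02 and 13.2 CPM in progenitors. The sensory and neural crest list summed to 95.4, 68.8, 25.7 and 25 CPM in members and 154, 118, 10.6 and 22.6 CPM in progenitors, and the list of other spinal interneurons to 31.8, 32.6, 67.5 and 47.9 CPM and 12.4, 26, 15.3 and 19.9 CPM. The count of calls was also taken without the cells that held LHX3 alone: members with ISL1 or MNX1 gave 1910 calls, against 2058.

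The change from progenitor to nascent cell was then compared between species, by testing human change minus mouse change. The difference was called for 656 of 10311 genes (6.36%), 279 with the higher change in human (2.71%) and 377 with the higher change in mouse (3.66%). Only 208 were called without human replicate 1 and 215 without mouse replicate 2. The human and mouse members also differed in factor combination, depth and line, and these cannot be told apart from species. The progenitors differed too: 662 of 843, 404 of 647, 313 of 673 and 209 of 493 held neither ELAVL3 nor NEFM UMIs. Against those progenitors alone 761 of 9939 genes were called, 577 of them among the 656. The part of the progenitors in the species difference was not tested. CCND1, the G1 cyclin, moved in opposite directions. It was 101, 152, 286 and 353 CPM in members and 642, 743, 81.1 and 106 CPM in progenitors. CCND1 fell in human (log2 fold change -2.42, SE 0.13, adjusted p = 3.9e-08) and rose in mouse (log2 fold change 1.73, SE 0.12, adjusted p = 2.8e-07), and the difference was -4.15 (SE 0.18, adjusted p = 3.5e-08). Both human parts fell and both mouse parts rose.

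Of the motor neuron and birth genes whose change differed, more had the higher change in mouse. Of 16 motor neuron genes, 6 changed more in mouse and 1 (SLIT3) more in human. SLC18A3 had a difference of -3.93 (SE 0.64, adjusted p = 0.0027) and CNTN2 one of -2.08 (SE 0.38, adjusted p = 0.0055). SLIT2 had one of -4.24 (SE 0.35, adjusted p = 1.7e-05), with a mouse change of 4.34. Of 27 birth genes, 10 changed more in mouse and 2 (CBFA2T2 and MFNG) more in human. NHLH1 changed by 3.67 in human and 5.89 in mouse with a difference of -2.22 (SE 0.30, adjusted p = 7.0e-04). Its levels ran the other way, since human progenitors already held 23.9 and 19 CPM and mouse progenitors 1.34 and 0.43 CPM.

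FABP7, a fatty-acid-binding protein of radial glia, rose in human (log2 fold change 0.62, SE 0.11, adjusted p = 0.0017) and fell in mouse (log2 fold change -0.92, SE 0.13, adjusted p = 1.7e-04), from 1135, 1039, 58.7 and 274 CPM to 1879.7, 1402, 32.9 and 149 CPM. The difference was 1.54 (SE 0.17, adjusted p = 1.5e-04). ID1 fell in human (log2 fold change -1.80, SE 0.31, adjusted p = 0.001) and differed between species by -2.59 (SE 0.43, adjusted p = 0.0032). VSX1, a V2 factor, and FOXN4 had differences of -4.50 (SE 1.25, adjusted p = 0.049) and -3.34 (SE 0.57, adjusted p = 0.0038), on 1, 4, 8 and 43 and 15, 29, 31 and 41 UMIs in members. The VSX1 call is fragile: it held in 4 of 11 alternatives and was lost in 7, with values from -9.71 to -1.91.

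**Figure D4:**
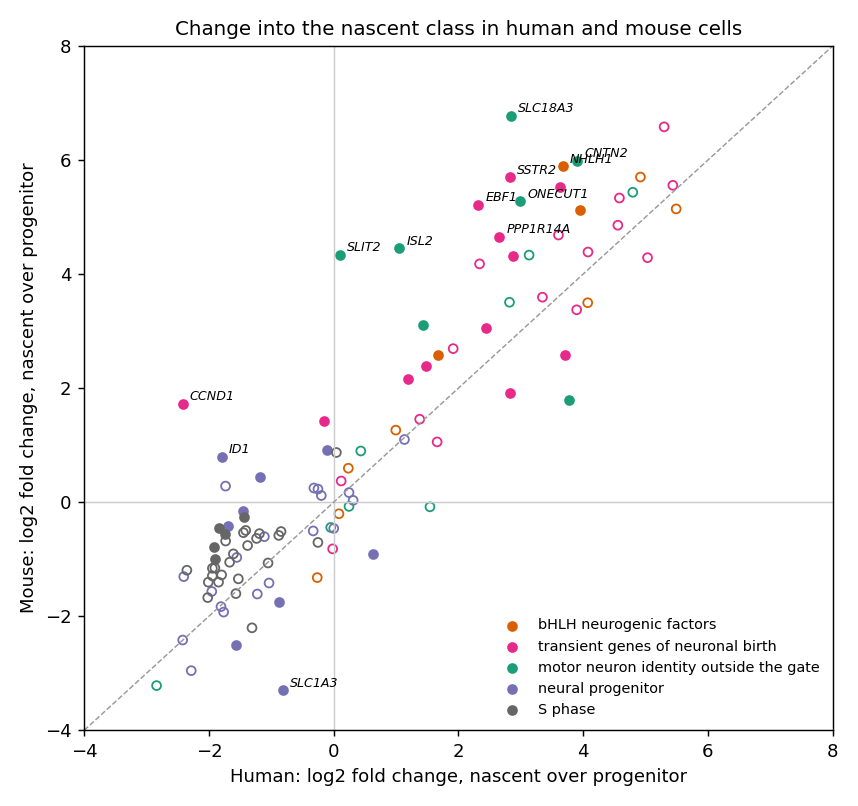
Log2 fold change from progenitor to nascent cells in human (x axis) and mouse (y axis), 1 point per gene shown of 5 lists, with filled points for genes whose change differed between species at an adjusted p under 0.05, a dashed line of equal change and names where the difference exceeded 2. CCND1 lies at -2.42 and 1.73, and most of the filled motor neuron and birth genes lie above the line.

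The next comparison set members against neurofilament-rich cells of the same factor rule. Of 8912 genes 1940 were called (21.8%), 929 higher in members (10.4%) and 1011 lower (11.3%), and 1028 were called without human replicate 2. Of 35 G2/M genes, 35 were higher in members (median 2.47). TOP2A was 104, 260.1, 206 and 328 CPM in members and 18.1, 22, 53.7 and 43 CPM in neurofilament-rich cells (log2 fold change 2.86, SE 0.25, adjusted p = 0.0011). Of 25 progenitor genes 16 were higher in members, including HES5 (log2 fold change 3.57, SE 0.32, adjusted p = 0.0013), which was 11.9, 56.2, 7.47 and 78.5 CPM in neurofilament-rich cells. Of 11 bHLH factors 7 were higher in members. NEUROG1 led them (log2 fold change 3.09, SE 0.24, adjusted p = 0.0011), followed by NEUROD4 (log2 fold change 2.34, SE 0.31, adjusted p = 0.0035), and NHLH2 was the lower one (log2 fold change -0.67, SE 0.16, adjusted p = 0.022). The NHLH2 call was lost in 7 of 14 alternatives, where the value came as close to 0 as -0.17. NHLH1 was higher in members by a smaller margin (log2 fold change 0.56, SE 0.15, adjusted p = 0.031).

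Birth genes thus split at the step to neurofilament. Of 27 such genes 16 were higher in members and 4 lower. DLL1, GADD45G and HES6 were higher in members, with log2 fold changes of 2.10, 2.04 and 1.96, and EBF1 was higher in neurofilament-rich cells (log2 fold change -0.99, SE 0.18, adjusted p = 0.0082). ST18 was 73, 55.3, 31.5 and 45.5 CPM in members and 143, 71.6, 58.4 and 36 CPM in neurofilament-rich cells, and CHRNA3 was 117, 70.9, 63.9 and 26.3 CPM and 77.3, 53.7, 109 and 34.5 CPM. Both had risen from progenitors, and between these classes neither passed the test.

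Genes of mature neurons were lower in members. Of 19 motor neuron genes 16 were lower, of 5 cholinergic genes 4, of 35 axon genes 29 and of 26 synaptic genes 22. PRPH, the peripheral neurofilament protein, was 0.72, 1.03, 1.33 and 1.1 CPM in members and 30.1, 126, 35 and 289 CPM in neurofilament-rich cells (log2 fold change -6.86, SE 0.44, adjusted p = 7.2e-04). SST, the neuropeptide somatostatin, was 0.72, 0.52, 0 and 1.1 CPM and 218, 335, 202 and 76.4 CPM (log2 fold change -7.79, SE 0.45, adjusted p = 6.7e-04). GAP43, a growth cone protein, was 7.95, 6.72, 102 and 62.7 CPM and 555, 547, 669 and 1293 CPM (log2 fold change -4.44, SE 0.56, adjusted p = 0.0031). The members' levels rest on 1, 2, 3 and 5 UMIs of PRPH and 1, 1, 0 and 5 of SST. ISL2 (log2 fold change -4.29, SE 0.47, adjusted p = 0.0024) and LHX4 (log2 fold change -1.76, SE 0.19, adjusted p = 0.0023) were lower too.

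The last comparison was within the class, between members with no ISL1 UMI and members with at least 1. The parts held 69, 62, 47 and 29 ISL1-free and 53, 45, 107 and 161 ISL1-positive members, with median depths of 10960, 17532, 13755 and 21179 and 10876, 16451, 14243 and 21282 UMIs. Only 45 of 6350 genes were called (0.709%), 31 higher in ISL1-free cells (0.488%) and 14 lower (0.220%). The count rested on single parts: it was 175 without human replicate 1, 23 without human replicate 2, 5 without mouse replicate 1 and 5 without mouse replicate 2. ISL1-free means only that no ISL1 UMI was counted.

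In mouse, ISL1-free members held less OLIG2 and more V2 transcripts than ISL1-positive members. OLIG2 was 500.5, 443, 201 and 81 CPM in ISL1-free and 426, 363, 359 and 380.2 CPM in ISL1-positive members. The ISL1-free cells were thus higher in both human parts and lower in both mouse parts, with log2 ratios of 0.23, 0.29, -0.84 and -2.23. OLIG2 had a UMI in 91.3, 96.8, 53.2 and 17.2% of ISL1-free members, and at 5000 UMIs per cell in 82.6, 77, 40.4 and 10.7%. Whether this opposite movement differs between species was not tested. VSX1 was 0, 0, 9.97 and 57.5 CPM against 1.68, 5.38, 0.65 and 1.04 CPM, and FOXN4 was 2.54, 17.7, 41.3 and 54.5 CPM against 21.8, 10.8, 1.29 and 1.04 CPM. Both V2 genes were higher in ISL1-free cells of the mouse parts, and VSX1 was at 0 in ISL1-free cells of the human parts. The V2 list summed to 21.6, 31.1, 352 and 302 CPM in ISL1-free and 36.9, 41.7, 34.2 and 33.5 CPM in ISL1-positive cells. Among the 40 and 23 mouse cells that held LHX3 alone, VSX1 had a UMI in 7.5 and 52.2% and OLIG2 in 50 and 13%. The 53 and 43 human cells of that kind gave 0 and 0% for VSX1, where a count of 0 allows up to 5.66 and 6.98%, and 90.6 and 100% for OLIG2. For the mouse cells that entered through LHX3 alone, these markers go against the label of motor neuron, and they are called here by the rule only.

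Of the called genes, several progenitor genes were higher in ISL1-free cells. Of 24 progenitor genes 5 were higher. SOX21, an HMG-box factor that is also on the V2 list, was 6.35, 0.84, 109.7 and 58.9 CPM in ISL1-free and 0, 1.34, 16.8 and 15.9 CPM in ISL1-positive members (log2 fold change 2.20, SE 0.31, adjusted p = 0.0086). IRX5, a factor of more dorsal progenitors, was 2.54, 13.5, 54.1 and 95.8 CPM against 3.36, 5.38, 19.996 and 13.3 CPM (log2 fold change 2.00, SE 0.33, adjusted p = 0.018). SNCB, a synuclein, was 2.54, 0, 68.4 and 106 CPM against 0, 0, 18.1 and 16.6 CPM (log2 fold change 2.30, SE 0.29, adjusted p = 0.0065). Human levels of these 3 genes were at most 13.5 CPM. SOX3 was higher in ISL1-free cells of all 4 parts, at 122, 87.4, 79.7 and 70.7 CPM against 53.7, 30.9, 30.3 and 29.9 CPM (log2 fold change 1.31, SE 0.16, adjusted p = 0.0062). Of 21 guidance and adhesion genes, 3 were lower in ISL1-free cells and 18 did not pass. These were SLIT2 at -2.32, CNTN2 at -1.73 and SLIT3 at -1.44 on the log2 scale. Their calls held in 7 of 8, 8 of 12 and 6 of 12 alternatives. CNTN2 was 10.2, 21, 12.8 and 26.5 CPM against 36.9, 47, 56.1 and 96.7 CPM, lower in every part (log2 fold change -1.73, SE 0.22, adjusted p = 0.0062). SLC18A3, which had too few counts for the test, was 3.81, 7.57, 5.7 and 4.42 CPM against 3.36, 8.06, 87.1 and 44.7 CPM.

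Some cell-cycle genes were higher in ISL1-free cells. Of 35 G2/M genes 7 were higher and 28 did not pass, and of 28 S phase genes 2 were higher and 26 did not pass. MKI67 was 30.5, 157, 75.5 and 306 CPM in ISL1-free and 25.2, 98.1, 23.2 and 98.2 CPM in ISL1-positive members (log2 fold change 1.19, SE 0.19, adjusted p = 0.016). CCND1 was 108, 188, 422 and 1154 CPM against 92.3, 94.1, 224 and 212 CPM (log2 fold change 1.27, SE 0.25, adjusted p = 0.032). The MKI67 call held in 7 of 11 alternatives and the CCND1 call in 6 of 11. NEUROG2, the proneural factor, was 394, 302, 386 and 246 CPM and 309, 282, 299.9 and 269 CPM.

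**Figure D5:**
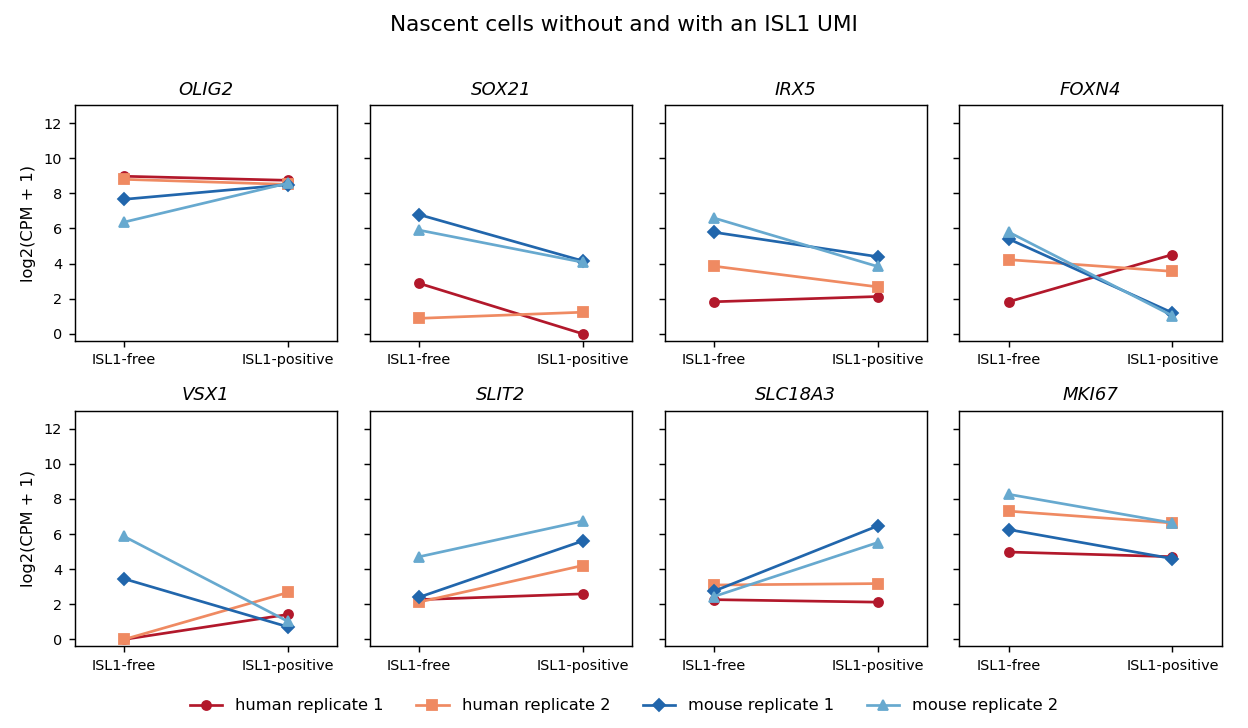
Level of 8 genes in nascent cells without and with an ISL1 UMI (x axis) as log2(CPM + 1) of the summed counts (y axis), 1 line per library part and no error bars because each point is 1 sum. In mouse parts OLIG2 and SLC18A3 climb and VSX1 and FOXN4 drop from ISL1-free to ISL1-positive cells, while human OLIG2 falls slightly.

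In mouse replicate 1, a smaller set carried a visceral motor neuron gene. Among its 33 members with ISL1 and no LHX3, PHOX2A was 164 CPM, with a UMI in 21.2%. In mouse replicate 2 the 45 such members held 0.89 CPM, and the human members of this kind held no UMI of it. TBX20, another gene of those neurons, was 8.53 CPM in mouse replicate 1. These values of 1 library carry no test.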

How the data were processed

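Single-cell libraries of the 10x 3' kind were counted with Cell Ranger 3.1.0 against the builds hg38 and mm10, per the submitters' processing notes. Which annotation and cell calling were used is not given in the sources used here. Raw UMI counts were what the authors deposited, per gene and cell, and the files list 32739, 56832, 27999 and 54087 genes (human 1, human 2, mouse 1, mouse 2). Total counts were 28577630, 32803173, 38166382 and 83969715 UMIs, and intervals and limits for a count of 0 (3 counts) cover counting error only.

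Symbols were upper-cased and 15472 occurred in all 4 files. Cells under 1000 UMIs, under 500 genes or over 10% mitochondrial UMIs were dropped, as were 60 barcodes shared by both parts of the mixed library. After that 3 barcodes were shared between libraries. Counts were summed per library part and class, scaled by TMM, filtered with filterByExpr and tested with edgeR 4.0.16 (R 4.3.3), with Benjamini-Hochberg adjustment. The blocks pair classes of 1 library: deviations of members and progenitors from their species mean correlated at r = 0.86 over genes in both species. For members and neurofilament-rich cells r was 0.83 in human and 0.67 in mouse. These values cover genes with a mean of at least 10 CPM. Scrublet in scanpy 1.11.5 scored doublets, which were kept in the main fits. DESeq2 1.42.0 and other alternatives appear in the closing section. Genes named are those with the 12 highest and 12 lowest folds, up to 4 called genes of each list, the 8 largest species differences each way, the 6 highest and lowest folds of the other comparisons, and genes named after their values were seen. The members and gene lists were chosen with earlier results of these data known. Some genes of the lists are not reported here by name.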

Additional observations from a re-analysis of the deposited data

Results flagged for a closer look

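The change from progenitor to nascent cells differed between human and mouse for the following genes, by edgeR's test of human change minus mouse change at an adjusted p under 0.05. Values are that difference on the log2 scale. The cause was not tested, and species, line, depth, factor combination and the make-up of the progenitors cannot be told apart.

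The largest differences toward human were found for PDE8B (7.6), VIPR2 (7.56), DSC2 (6.54), SPON2 (6.45), GRIA2 (5.04), HSD11B2 (4.81), SYNDIG1 (4.37) and CSRNP1 (4.32). Several rest on classes without counts, where the fitted value depends on the prior count and is no bound. PDE8B, a phosphodiesterase, had 16, 41, 0 and 0 UMIs in members and 30, 66, 10 and 10 in progenitors. DSC2, a desmosomal cadherin, had 17, 64, 0 and 0 and 99, 414, 4 and 25, and VIPR2, a neuropeptide receptor, had 25, 9, 0 and 0 and 88, 18, 13 and 17. The DSC2 call held in 9 of 14 alternatives and was lost in 5. The GRIA2 call held in 8 of 14, was lost in 5 and changed sign in 1.

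The largest differences toward mouse were found for GAL (-9.96), MAP7D2 (-7.68), SLC1A2 (-7.11), CLVS1 (-6.90), TGFB2 (-6.50), BACE2 (-6.10), PMP22 (-6.07) and HPDL (-5.65). MAP7D2 kept its call in 7 of 14 alternatives and lost it in 7, with values from -8.05 to -4.72. GAL, the neuropeptide galanin, had 2, 3, 22 and 2 UMIs in members and 197, 195, 0 and 1 in progenitors. SLC1A2, a glutamate transporter, had 0, 3, 111 and 296 in members and 28, 80, 31 and 30 in progenitors. PMP22, a myelin protein, had 1, 2, 71 and 180 and 90, 93, 50 and 75. CLVS1 had 2, 2, 112 and 259 and 33, 18, 14 and 7. These 4 genes were scarce in human members of both parts.

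Among genes chosen after their values were seen, differences were found for CCND1 (-4.15), SLC18A3 (-3.93), SLIT2 (-4.24), FABP7 (1.54), ID1 (-2.59), CNTN2 (-2.08), NHLH1 (-2.22), FOXN4 (-3.34), VSX1 (-4.50), INA (-2.40) and TUBB3 (-2.00). VSX1 kept its call in 4 of 11 alternatives and lost it in 7. The TUBB3 value includes the human replicate 1 file, which lists that gene at 0.

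OLIG2 was higher in ISL1-free than in ISL1-positive members of both human parts and lower in both mouse parts, and the mean log2 ratio differed by 1.79. That difference was not tested.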

How the results depend on the processing

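The share of cells in the class kept its direction in every alternative that gave a value. Without the replicate block, which pairs classes of 1 library, counts fell to 377 genes against progenitors, 56 in human, 131 in mouse, 1 for the species difference, 580 against neurofilament-rich cells and 0 for ISL1-free cells (edgeR, 112 at an unadjusted p under 0.05; DESeq2 with the block called 22). Thinning to 5000 UMIs per cell, which tests fewer genes, gave 1139, 1180, 1388, 255, 720 and 3 in that order, and the last of these also lost mouse replicate 2, which had under 20 ISL1-free cells. That last fit tested 1734 genes, and 0 of its 3 calls were among the main calls. DESeq2 called 1315 in human, 1544 in mouse and 342 for the species difference. No low-count filter gave 1100 for the species difference and 288 for ISL1-free cells. Members without SOX2 gave 910 in human, 368 for the species difference and 602 against neurofilament-rich cells, and turned GRIA2 to -2.09. Human replicate 2 had too few such members, and ISL1-free cells could not be fitted that way. At least 3 factor UMIs gave 16 for ISL1-free cells, again without mouse replicate 2 for the same reason. Leaving out 1 library part gave 894 to 1444, 561 to 2908, 1410 to 3075, 208 to 863, 1028 to 1602 and 5 to 175, and a lone part of a species was then assumed to vary like the others. The causes were not tested. Counting each named gene once per alternative, 1546 values over all parts kept direction and call, 125 lost the call and 18 gained it. In the ISL1 comparison 112 kept it and 66 lost it. The ISL1 split rests on 29 to 69 ISL1-free cells per part.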
